A study of Mus musculus and Rattus norvegicus with 18 samples.

Results

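The heart ribosome profiling table of this series lists footprint counts for open reading frames, and 801 of its 17866 genes have a longest frame of at most 100 codons, the stop not counted, with at least 20 footprints summed over 4 libraries. That longest frame is the member studied here, with its footprints, the RNA of the same gene and their ratio. Of 2060 genes with a longest frame that short, 684 had 0 footprints. The hearts came from 4-week-old C57BL/6 mice that were either control (Ctrl) or carried a conditional knockout of Mettl1 (cKO), with 2 RNA libraries and 2 footprint libraries of each genotype. The labels name no Cre driver and no floxed allele, and they do not say whether replicates are separate animals, so that p-values measure the spread between these libraries; nor do they tie an RNA library to the footprint library of the same heart. A cell comparison used H9C2, a line derived from embryonic rat heart with the strain label Sprague-Dawley, as WT and as 1 genome-edited Mettl1-null line with a CRISPR-Cas9 frameshift, in 3 RNA libraries each.

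Mettl1 is the catalytic subunit of the methyltransferase that places N7-methylguanosine on a set of tRNAs, which decode messenger RNA on the ribosome. Ribosome profiling sequences the piece of RNA that a translating ribosome shields, so that footprints on a frame reflect how much RNA there is and how many ribosomes it carries. Small proteins are abundant in heart muscle: many subunits of the respiratory chain, the chaperones that guide proteins into mitochondria, the metal-binding metallothioneins and the membrane micropeptides that set the calcium pump, such as phospholamban, are shorter than most domains of larger proteins.

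By RefSeq gene records only 291 members were protein-coding genes. A further 268 were long noncoding RNAs, 91 pseudogenes, 7 features of the mitochondrial genome, 6 other RNAs or immunoglobulin or receptor segments, and 138 matched no record, so the members are called short frames below and the coding ones are kept apart. Coding members held 57.17% of the members' footprints, the mitochondrial features 30.83%, the 6 other RNAs and segments 10.26% and the long noncoding RNAs 0.8%. Per codon, coding members had a median of 0.116 footprint CPM (CPM: counts scaled to 1000000 per library, with edgeR's TMM factors) in control hearts and long noncoding RNAs 0.0113, among members with at least 1 RNA count. At the edges of the rule, 19 genes had exactly 20 footprints and 9 had 19, among them Scgb1a1 and Spink2. Frames of 100 codons numbered 6, with Sec61g, and those 1 codon longer 10, with S100a4 and Vamp8.

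**Figure D1:**
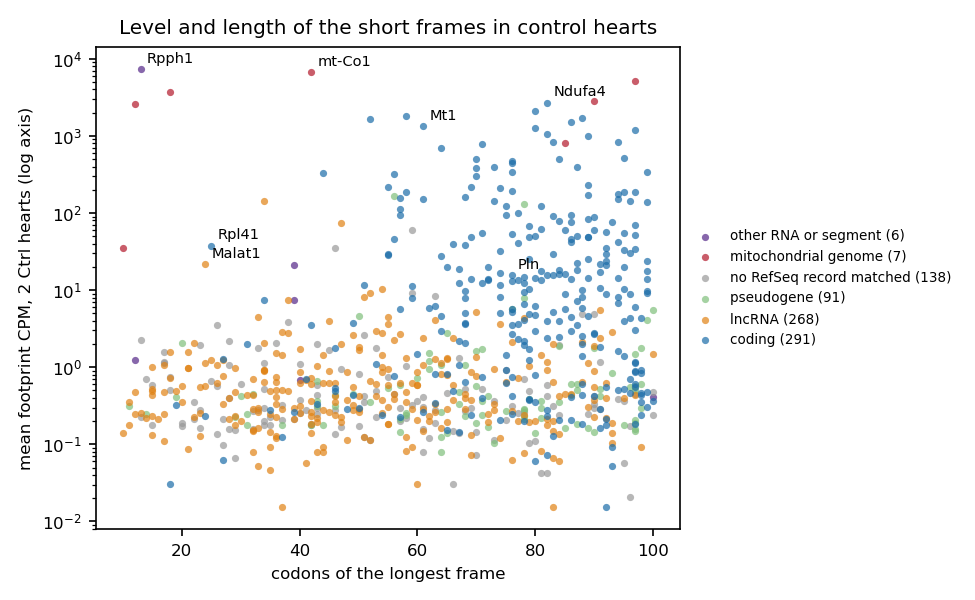
Mean footprint CPM in the 2 Ctrl libraries (vertical log axis) against the codons of the longest frame (horizontal axis) for short frames, coloured by RefSeq class; 5 members with 0 footprints in both Ctrl libraries are not drawn. Above 100 CPM there were 49 coding members and 1 long noncoding RNA, and under 1 CPM 78 coding members and 205 long noncoding RNAs.

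The metallothioneins, cysteine-rich proteins that bind zinc and copper, included the largest footprint change among coding members with a mean of at least 1 CPM. Mt3, Mt2 and Mt1 lie side by side on chromosome 8, and the windows from 250 bases before to 50 bases after their start sites, together spanning 26.8 kb, are shown because 2 of the 3 neighbours were called higher in footprints and the third was not. Sequences are from RefSeq, GRCm38.p6, plus strand, 5′ to 3′, and capitals mark the core of the metal response element, TGCACNC or TGCGCNC, searched on both strands with overlaps allowed.
Mt3, chr8:94152357-94152656: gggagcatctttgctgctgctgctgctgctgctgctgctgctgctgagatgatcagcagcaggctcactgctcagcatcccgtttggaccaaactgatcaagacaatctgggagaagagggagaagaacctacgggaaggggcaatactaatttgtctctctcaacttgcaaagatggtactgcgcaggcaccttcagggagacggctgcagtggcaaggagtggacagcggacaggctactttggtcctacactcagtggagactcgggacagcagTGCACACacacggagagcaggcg
Mt2, chr8:94172368-94172667: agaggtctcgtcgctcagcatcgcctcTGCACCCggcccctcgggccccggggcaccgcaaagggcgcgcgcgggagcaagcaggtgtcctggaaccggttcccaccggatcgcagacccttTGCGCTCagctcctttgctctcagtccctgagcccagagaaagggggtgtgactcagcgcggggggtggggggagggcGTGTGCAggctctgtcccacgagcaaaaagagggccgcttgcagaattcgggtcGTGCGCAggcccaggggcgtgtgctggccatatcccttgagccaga
Mt1, chr8:94178839-94179138: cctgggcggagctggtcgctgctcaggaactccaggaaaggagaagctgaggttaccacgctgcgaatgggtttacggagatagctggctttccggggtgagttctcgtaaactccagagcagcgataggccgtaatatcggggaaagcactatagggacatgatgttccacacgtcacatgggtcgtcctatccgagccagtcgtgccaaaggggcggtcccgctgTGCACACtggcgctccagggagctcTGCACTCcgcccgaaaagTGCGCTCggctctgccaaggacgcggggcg

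The core occurred 4 times in the Mt2 window, 3 times in that of Mt1 and 1 time in that of Mt3, where it begins 28 bases into the transcribed part. Of the 32851 windows of the same length in the table, 25.7% hold at least 1 such core and 1.97% hold 3 or more, so a match describes these letters only.

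The longest frame is not always the one with the most footprints. For 76 members another frame of the same gene held more footprints. Phospholamban, Pln, the inhibitor of the cardiac calcium pump, is the clearest case: its 76-codon longest frame held 1771 footprints, and a 75-codon frame of the same gene (chr10:53337763-53344022) held 547640, or 95.8% of the gene's footprints. Smpx, a muscle cytoskeleton protein, had 51 footprints on its 94-codon frame and 39267 on one of 85 codons. Gng11, a G protein gamma subunit, had 102 on its 99-codon frame and 6714 on one of 73 codons. The lengths of these frames, that of 75 codons in Pln among them, were not checked against the proteins. The selenoproteins Gpx3, Gpx4, Selenow and Selenof are listed with frames that end early. In such proteins an internal UGA codon is read as selenocysteine, a standard stop; mitochondria likewise read UGA as tryptophan, and the mitochondrial members are listed as short stretches of mt-Co1, mt-Cytb, mt-Nd1 and mt-Nd2, which encode much larger proteins. Whether that rule set these frame ends was not tested.

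Library totals were 25171650 to 39675627 footprint counts, 15052652 to 16844783 heart RNA counts and 90321496 to 94202947 H9C2 counts. Mettl1 had 6.34 and 6.68 footprint CPM in Ctrl and 2.25 in both cKO libraries, a log2 fold change of -1.53 (adjusted p = 7.8e-05). Its RNA was at 4.31 and 3.76 CPM against 2.49 and 2.52 (-0.69, adjusted p = 0.0664). All 8 cardiomyocyte markers were present, with a summed RNA of 52041 and 51768 CPM in Ctrl and 47625 and 48229 in cKO, and 4 of them passed as lower. The 5 erythroid markers summed to 1454 and 1588 CPM in Ctrl but 2490 and 1590 in cKO, so cKO replicate 1 stood apart, and 3 of them passed as higher. In bulk tissue, fewer cells of a type and less RNA per cell cannot be told apart.

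Mt3, the form first known from brain (68 codons), had 3.11 and 4.47 footprint CPM in Ctrl hearts and 50 and 47.0 in cKO hearts. The groups did not overlap, and footprints rose by 3.65 on the log2 scale (SE 0.14; edgeR adjusted p = 7.0e-11). Its RNA was at 0.129 and 0.191 CPM in Ctrl and 4.86 and 3.49 in cKO (4.65, SE 0.45, adjusted p = 6.0e-06).

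Mt2 rose more modestly, from 145 and 162 to 224 and 227 footprint CPM (0.55, SE 0.08, adjusted p = 2.0e-04). Its RNA was listed at 0.129 to 0.517 CPM in all 4 libraries and was not tested, far under its footprints, so no ratio is given. Mt1 had the most footprints per codon of the 3 in Ctrl, at 22 CPM against 2.52 for Mt2 and 0.0557 for Mt3, not set against RNA. Its footprints went from 1238 and 1443 to 1109 and 1187 CPM (-0.22, adjusted p = 0.0847). Mt1 RNA was at 260 and 281 CPM in Ctrl and 225 and 240 in cKO, a fall of 0.22 on the log2 scale with adjusted p = 0.024. That call was lost with DESeq2 (0.0767), with library totals (0.141), without Ctrl replicate 2 (0.185) and without cKO replicate 1 (0.171).

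**Figure D2:**
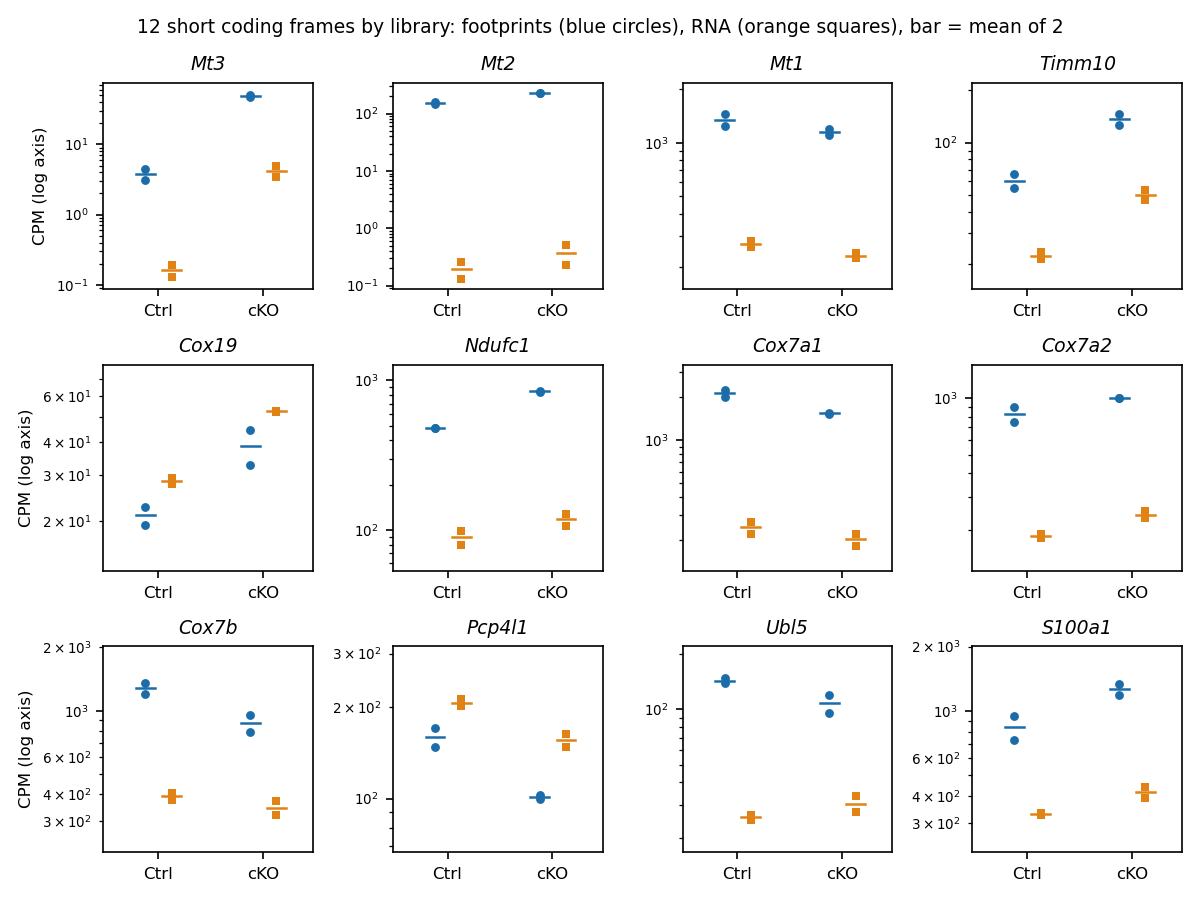
CPM of 12 short coding frames (vertical log axis) in each Ctrl and cKO library, as footprints (circles) and RNA (squares), with bars at the mean of the 2 libraries. Mt3 footprints sit at 3.11 and 4.47 in Ctrl and at 47.0 and 50 in cKO, and those of Mt1 at 1238 and 1443 in Ctrl and at 1109 and 1187 in cKO, not past the threshold.

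Across the coding members, more frames rose than fell. Of 272 tested, footprints of 55 were higher in cKO and those of 12 lower by edgeR's quasi-likelihood test at an adjusted p under 0.05, which is 20.2% and 4.41%, with a median log2 fold change of 0.12. Among all 13287 genes tested, 9.37% were higher and 7.4% lower, with a median of 0.00. Counting members of every class, 92 of 627 were higher and 34 lower, 14.7% and 5.42%. Both sets of counts include frames with at most 3 footprints in Ctrl, such as Ccl17, Ccl22, Lif and Tcte2. These met the rule on summed footprints only through cKO, so their direction was set by the rule. No member was that sparse in cKO. The counts without such frames were not made. RNA gave 54 of 257 coding members higher and 11 lower, 21% and 4.28%, median 0.14, beside 8.16% and 6.26% of all 14088 genes. Of members of every class, 548 had RNA that was tested, with 89 higher and 30 lower. The remaining members did not pass the filter on low counts and have no test.

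The count of higher members rested in part on cKO replicate 1, the library with the most erythroid RNA. Without it, 31 of 281 coding members had higher footprints (11%, beside 4.86% of all genes, median 0.06), and 33 of 262 had higher RNA (12.6%, beside 4.38%, median 0.05). The part of erythroid RNA in this was not tested. Without each of the other libraries in turn, 41 to 46 coding members were higher in footprints and 45 to 58 in RNA. Scaled by library totals alone, without TMM, all genes shifted in median by 0.07 in footprints and 0.08 in RNA, and 71% of all footprint calls and 77.7% of all RNA calls were higher, in place of 55.9% and 56.6%.

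The excess of higher calls was not confined to frames of at most 100 codons. Footprints of genes with a longest frame of over 100 and up to 200 codons were higher in 15.2% and lower in 5.84%. For over 500 and up to 1500 codons these shares were 6.44% and 7.46%, and for over 1500 codons 5.2% and 7.93%. RNA showed 15% and 3.43% between 100 and 200 codons and 4.08% and 12.2% over 1500 codons. The median RNA change ran from 0.13 for frames of at most 100 codons, through 0.09 between 100 and 200, to -0.10 over 1500 codons. Within the coding members, footprints of 32 of 134 frames of 81 to 100 codons were higher and 1 lower. For 61 to 80 codons 20 of 100 were higher and 8 lower. For 41 to 60 codons 1 of 29 was higher and 2 were lower, and for 1 to 40 codons 2 of 9 were higher and 1 lower. These shares over lengths are a description with no test of their difference.

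**Figure D3:**
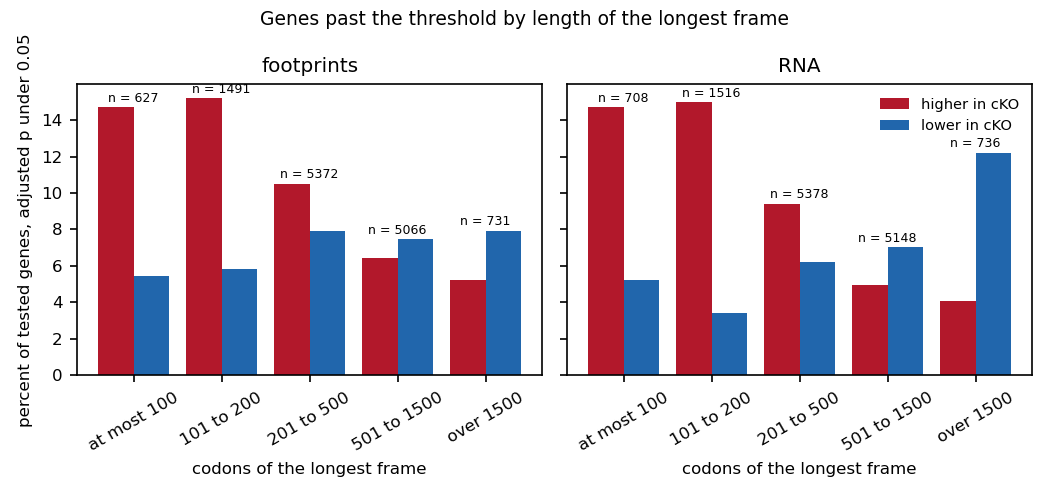
Percent of tested genes past an adjusted p of 0.05 (vertical axis), higher or lower in cKO, by codons of the longest frame (horizontal axis), for footprints and RNA, with the number tested above each pair of bars. The higher share falls from 15.2% between 100 and 200 codons to 5.2% over 1500 codons in footprints, and the lower share reaches 12.2% over 1500 codons in RNA.

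Respiratory chain subunits were the largest group of abundant members, and their footprints went in both directions. The counts by role from here on stand beside 9.37% higher and 7.4% lower footprints among all genes tested. In cytochrome c oxidase, complex IV, 3 of 10 members were higher, 3 lower and 4 did not pass, with a median of -0.11. Cox7a1, the form of subunit VIIa found in heart and skeletal muscle (chromosome 7, frame from 30184231 to 30185967), had 2259 and 2005 footprint CPM in Ctrl and 1531 and 1542 in cKO. These groups were apart, and footprints fell by 0.47 on the log2 scale (SE 0.08, adjusted p = 5.4e-04). Its widely expressed counterpart Cox7a2 (chromosome 9) had 747 and 902 in Ctrl and 1005 and 1001 in cKO. That rise of 0.28 (SE 0.09, adjusted p = 0.0358) was lost without Ctrl replicate 1 (0.215), without cKO replicate 1 (0.173) and without cKO replicate 2 (0.122).

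Cox7a2 RNA rose from 191 and 183 to 252 and 232 CPM (0.37, adjusted p = 6.4e-04), and Cox7a1 RNA was at 267 and 220 against 220 and 181 (-0.28, adjusted p = 0.0534). The difference between the 2 genes was not tested. Cox7b, another nuclear-encoded subunit, fell from 1354 and 1207 to 793 and 953 footprint CPM (-0.55, SE 0.09, adjusted p = 5.3e-04). Cox8a, the widely expressed form of subunit VIII, rose from 218 in both Ctrl libraries to 287 and 270 (0.36, adjusted p = 0.00439), a call lost without cKO replicate 1 (0.118). Cox7c was called higher at 0.78, but its frame had only 5.15 to 12.3 footprint CPM for 282 to 377 CPM of RNA, and the call was lost without Ctrl replicate 2 (0.129) and without cKO replicate 1 (0.196).

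In complex I, Ndufc1, a small membrane subunit, stood out with 479 footprint CPM in both Ctrl libraries and 852 and 842 in cKO. Footprints rose by 0.82 (SE 0.07, adjusted p = 1.3e-06), and RNA by 0.40 (adjusted p = 0.0129), the latter lost with DESeq2 (0.319) and without cKO replicate 1 (0.177). The other 4 complex I members did not pass. The median of all 5 was -0.06, and of the 32 longer complex I subunits 2 were higher and 4 lower. None of the 4 complex III members passed in footprints with edgeR, whereas 4 of the 5 longer subunits were lower, with a median of -0.31. Among 5 ATP synthase members, Usmg5, a subunit that links the enzyme into dimers, fell from 210 and 163 to 141 and 135 CPM (-0.43, adjusted p = 0.00773, lost without Ctrl replicate 1 at 0.0841). Atp5j2 rose from 1638 and 1739 to 2100 and 1926 (0.25, adjusted p = 0.0328), lost without Ctrl replicate 1 (0.107), without cKO replicate 1 (0.405) and without cKO replicate 2 (0.0616).

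Among short proteins of mitochondrial import, assembly and the inner membrane, calls were in 1 direction. Of 25 members, 10 had higher footprints, 0 lower and 15 did not pass, with 18 fold changes above 0 (median 0.34). In RNA 10 were higher and 0 lower (median 0.24). Among all genes tested, 9.37% were higher and 7.4% lower in footprints, and 8.16% and 6.26% in RNA. Of the longer genes on the same list, 2 of 25 were higher and 3 lower in footprints, with a median of -0.06. Several calls of short mitochondrial proteins rested on cKO replicate 1. Without it the footprint calls of Timm13, Pet100, Romo1, Higd1a and Uqcc3 were lost, as were the RNA calls of Cmc2, Coa4, Tomm5 and Triap1. No such loss was found for the footprint calls of Timm10, Cox19, Lyrm4 and Coa5. Timm10, a chaperone of the intermembrane space that carries hydrophobic proteins to the inner membrane (chromosome 2, frame from 84827643 to 84829991), had 65.8 and 54.7 footprint CPM in Ctrl and 147 and 126 in cKO. The groups lay far apart, and footprints rose by 1.18 (SE 0.10, adjusted p = 9.1e-07). Its RNA rose by the same amount, from 23.3 and 21.4 to 53.3 and 47.0 CPM (1.17, SE 0.09, adjusted p = 9.0e-07).

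Cox19, which takes part in delivering copper to cytochrome c oxidase, rose from 19.3 and 22.7 to 32.7 and 44.7 footprint CPM (0.88, SE 0.14, adjusted p = 2.8e-04), with RNA at 0.89. Lyrm4, a partner of the desulfurase that builds iron-sulfur clusters, rose by 0.62 in footprints (adjusted p = 7.9e-04) and 0.64 in RNA. Coa5, a complex IV assembly factor, rose from 17.6 and 15.8 to 23.4 and 24.7 footprint CPM (0.53, adjusted p = 0.0035). Not every chaperone of the family moved with Timm10: its partner Timm9 was at -0.15 in footprints and 0.04 in RNA, and Timm8b at 0.13 and 0.23, none of them past the threshold.

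**Figure D4:**
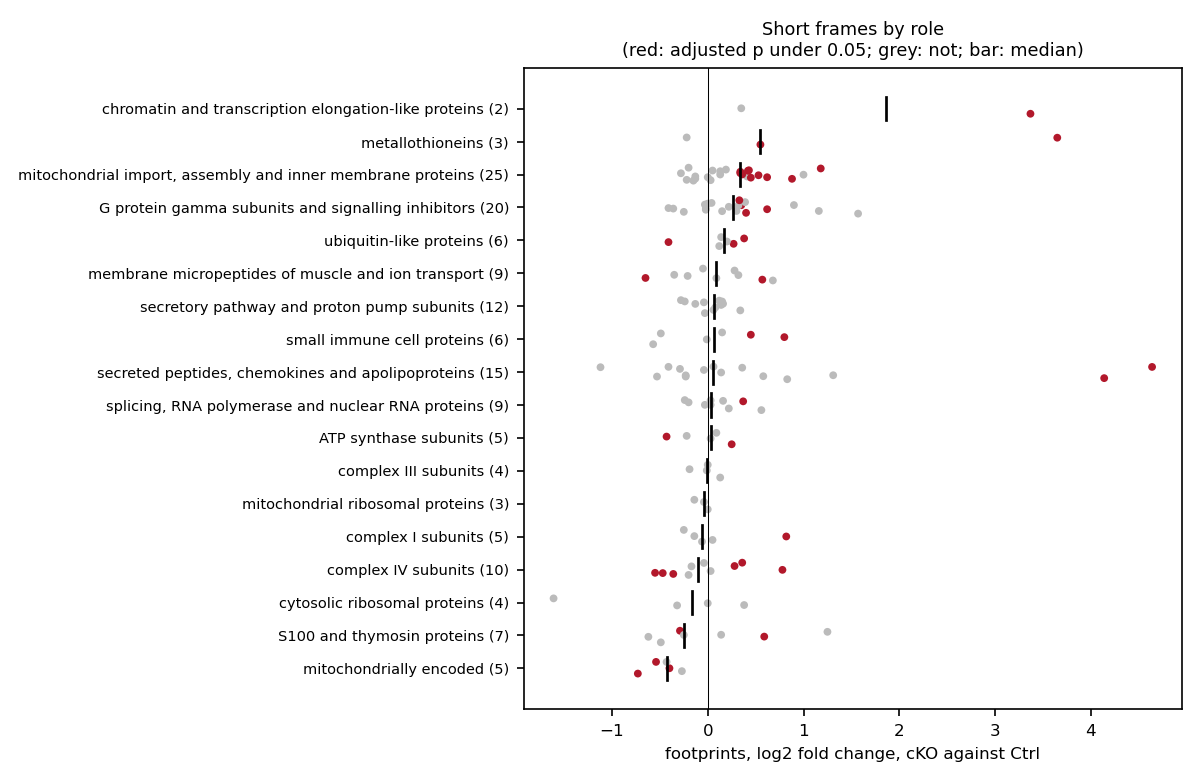
Footprint log2 fold change, cKO against Ctrl (horizontal axis), of short frames by role list (vertical axis, number tested in brackets), with each dot 1 member, red where the adjusted p is under 0.05, and a bar at the median. The 25 mitochondrial import and assembly members have a median of 0.34, and the 10 complex IV members spread to both sides of 0 with a median of -0.11. The 2 dots past 4 are Ccl17 and Ccl22, whose Ctrl counts were at most 3.

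Calls among the mitochondrially encoded members were lower. All 5 protein-coding ones had negative changes in both assays, 3 of them past the threshold in footprints and 5 in RNA. The listed stretch of mt-Nd1, a core complex I subunit, had 2969 and 2680 footprint CPM in Ctrl and 1467 and 1941 in cKO (-0.73, SE 0.11, adjusted p = 1.5e-04), and its RNA fell from 22494 and 23192 to 20922 and 19946 CPM (-0.16, adjusted p = 0.0105, lost with DESeq2 at 0.129 and with library totals at 0.182). The stretch of mt-Co1 had 7532 and 5760 footprint CPM in Ctrl and 4412 and 5668 in cKO. That fall of 0.40 (adjusted p = 0.0282) was lost with DESeq2 (0.392), with library totals (0.0636), without Ctrl replicate 1 (0.322) and without cKO replicate 1 (0.26). The stretch of mt-Cytb was called lower at -0.54 (adjusted p = 0.0216), a call lost with DESeq2 (0.424), without Ctrl replicate 1 (0.376) and without cKO replicate 1 (0.0969). The mitochondrial members took 19.6% to 22.4% of all heart RNA counts, and all members together took 23.4% and 24.1% of RNA counts in Ctrl against 21.7% and 21.9% in cKO. With mitochondrial features left out of members and total the RNA shares were 2.42% and 2.3% against 2.66% and 2.39%, so the direction turned. An exact two-sided permutation test cannot go below p = 0.333 with 2 libraries against 2, and gave 0.333 and 0.667 for these RNA shares.

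Among the membrane micropeptides of muscle and ion transport, 9 of 11 were tested, 1 was higher and 1 lower in footprints (median 0.09). Pcp4l1, a small relative of the calmodulin regulator Pcp4, fell from 171 and 148 to 99.7 and 103 footprint CPM (-0.65, SE 0.09, adjusted p = 7.9e-05) and in RNA from a mean of 206 ± 7.85 to one of 155 ± 10.6 CPM (SD, n = 2 each; -0.41, adjusted p = 4.4e-04). Pln RNA fell from 1229 and 1256 to 998 and 956 CPM (-0.35, SE 0.05, adjusted p = 1.6e-04). Its sparse 76-codon frame had 17.8 and 13.7 footprint CPM in Ctrl and 11.3 and 13.3 in cKO (-0.35, adjusted p = 0.112). The well covered 75-codon frame had 5366 and 4513 in Ctrl and 3575 and 3820 in cKO, and with that frame in the fit footprints fell by 0.42 (SE 0.09, adjusted p = 0.00358). Sarcolipin, Sln, the related inhibitor of the calcium pump, was at 0.68 in footprints (adjusted p = 0.24).

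Hopx, a short homeodomain protein without DNA binding that acts in heart development, fell from 370 and 417 to 286 and 301 footprint CPM (-0.42, adjusted p = 0.00174), and its RNA fell by 0.35. S100a1, the calcium sensor of heart muscle, rose from 947 and 732 to 1343 and 1182 footprint CPM (0.59, SE 0.10, adjusted p = 8.6e-04) and by 0.33 in RNA (adjusted p = 0.00171). Of the 7 tested S100 and thymosin members these footprints were the only ones called higher, and S100a10 was called lower at -0.29 (adjusted p = 0.0311; lost with library totals at 0.0896, and without Ctrl replicate 1 at 0.188, cKO replicate 1 at 0.202 and cKO replicate 2 at 0.114). Hopx and Pcp4l1 were lower and S100a1 higher in every cKO library than in every Ctrl library.

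Other coding members with a mean over 1 CPM rose by more than the subunits above. Tceal7, a member of a family related to transcription elongation factors, had 0.546 and 0.153 footprint CPM in Ctrl and 3.28 and 3.5 in cKO (3.37, SE 0.42, adjusted p = 4.1e-05), with RNA at 0.193 and 0.255 against 3.76 and 2.97 CPM. Meig1, known for spermatogenesis, rose from 9.45 and 6.65 to 26.4 and 24.3 (1.67, adjusted p = 1.0e-06). Mllt11, first found as a fusion partner in leukaemia, rose from 2.56 and 2.76 to 8.58 and 9.31 (1.74, adjusted p = 7.0e-06). In each of these, both cKO libraries lay above both Ctrl libraries in footprints. The rule that named members by size of change asked for groups without overlap, so such gaps are no separate evidence, here or above.

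Ddit3 encodes CHOP, the stress-induced transcription factor, and its listed frame of 80 codons is shorter than that protein. The frame had 3.53 and 2.42 footprint CPM in Ctrl and 9.57 and 9.16 in cKO (1.68, SE 0.20, adjusted p = 2.1e-05), and RNA rose from 9.53 and 8.15 to 20.9 and 18.4 CPM (1.16, adjusted p = 2.4e-05). Gpx4, the selenoenzyme that reduces lipid peroxides, rose in footprints of its listed frame from 12.8 and 15.4 to 24.8 and 20.4 (0.68, adjusted p = 0.00188) and in RNA from 301 and 312 to 511 and 474 CPM (0.68, adjusted p = 1.2e-06). Lamtor5 and Lamtor4, subunits of the Ragulator complex that anchors nutrient signalling at the lysosome, rose by 0.62 (adjusted p = 4.8e-04) and 0.40 (adjusted p = 0.00277) in footprints. Both were placed on the list named for G protein gamma subunits and signalling inhibitors, although they are neither. Of the 20 tested members of that mixed list, 4 were higher and 0 lower in footprints (median 0.26), beside 9.37% and 7.4% of all genes tested. In RNA, 3 of 18 tested were higher and 2 lower (median 0.05), beside 8.16% and 6.26% of all genes tested.

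Cytokines and chemokines were near the detection limit in Ctrl. Lif, a cytokine of the interleukin-6 family whose listed frame is shorter than the protein, had 0 footprints in both Ctrl libraries and 33 over the cKO libraries, at least 8.4-fold higher against a floor of 3 counts over the group. Its call was lost without Ctrl replicate 1 (0.0519) and without Ctrl replicate 2 (0.0647). Ccl17, a T cell attractant, had 3 footprints in Ctrl and 76 in cKO, a ratio of 19.4 with an exact 95% counting interval of 6.38 to 95.9, lost as a call without cKO replicate 1 (0.139). Ccl22, which binds the same receptor, had 1 and 40 (30.6, 5.18 to 1237), lost without Ctrl replicate 1 (0.0792). Lif, Ccl17 and Ccl22 met the rule on summed footprints only through their cKO counts. A frame this sparse in Ctrl could become a member only if it was higher in cKO. Their direction and the size of their ratios are therefore partly set by the rule. Of 15 tested members among secreted peptides, chemokines and apolipoproteins, 2 were higher and 0 lower in footprints.

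Of 6 immune cell members, 2 had higher footprints and 0 lower (median 0.07), and of 5 tested in RNA 3 were higher and 0 lower. Among all genes tested, 9.37% were higher and 7.4% lower in footprints, and 8.16% and 6.26% in RNA. Cd52, a surface glycoprotein of lymphocytes and myeloid cells, rose from 4.87 and 5.24 to 7.8 and 9.83 footprint CPM (0.80, adjusted p = 0.00442, lost without cKO replicate 2 at 0.0669), and its RNA rose by 1.06. Cstb, an inhibitor of cysteine proteases, was called higher at 0.45 (adjusted p = 0.0388), a call lost with DESeq2 (0.071), without Ctrl replicate 1 (0.139), without Ctrl replicate 2 (0.121) and without cKO replicate 2 (0.545). S100a8, a neutrophil protein, was at -0.49 in footprints and -1.01 in RNA, neither past the threshold. The 5 macrophage markers summed to 289 and 309 RNA CPM in Ctrl and 329 and 325 in cKO with 0 past the threshold, and the 5 neutrophil markers to 2.91 to 5.21 CPM. The part of immune cells in these changes was not tested.

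Cytosolic ribosomal proteins had 4 short members. Footprints of none passed with edgeR, with a median of -0.16, and RNA of Rpl37 and Rpl41 was higher at 0.43 (adjusted p = 0.0168) and 0.36 (adjusted p = 0.0296), each lost with DESeq2 (0.388 and 0.498) and without cKO replicate 1 (0.275 and 0.435). Rpl41, at 25 codons the smallest of them, had 44.8 and 30.7 footprint CPM in Ctrl and 29.9 and 30.3 in cKO. Of the longer ribosomal proteins 16 of 39 were higher and 2 lower in footprints (median 0.26). In RNA 38 of 77 genes of the list outside the members were higher and 1 lower, a set not limited to longer frames. Ubiquitin-like Ubl5, which acts in splicing and mitochondrial stress signalling, fell from 139 and 147 to 94.8 and 120 footprint CPM (-0.41, adjusted p = 0.00971; lost without Ctrl replicate 2 at 0.0578 and without cKO replicate 1 at 0.247), with RNA at 0.25 (adjusted p = 0.129).

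Long noncoding RNAs, pseudogenes and members without a RefSeq record carried few footprints, 0.8%, 0.59% and 0.35% of the members' total, and their values are counts on a stretch of RNA. Of the long noncoding RNAs tested, 25 (12.4%) were higher and 10 (4.98%) lower in footprints, beside 9.37% and 7.4% of all genes tested. Malat1, a nuclear RNA, had 25.7 and 17.6 CPM on its 24-codon frame in Ctrl and 8.71 and 10.3 in cKO (-1.18, SE 0.16, adjusted p = 8.8e-05), with RNA at 88.8 and 68.9 against 63.9 and 83.1 CPM (-0.10, adjusted p = 0.63). Zfas1, a host gene of small nucleolar RNAs, rose by 1.13 in footprints (adjusted p = 0.0187, lost without Ctrl replicate 1 at 0.139 and without cKO replicate 2 at 0.125) and by 1.15 in RNA (adjusted p = 8.4e-05). The single most covered member was the RNA of ribonuclease P, Rpph1, whose 13-codon frame had 9018 and 5751 CPM in Ctrl and 4974 and 4728 in cKO with 0 RNA counts in every library. It was called lower (-0.61, adjusted p = 0.00544), and not with DESeq2 (0.245).

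Footprints and RNA of the coding members were then set side by side. Of 248 tested in both assays, 35 were higher in both, 4 lower in both, 0 opposite and 159 passed in neither. Footprints alone passed as higher for 17 and as lower for 7, and RNA alone as higher for 19 and lower for 7. The same counts were not made over all genes tested in both assays, so they describe these members only. The difference between the assays was tested as translational efficiency, the interaction of genotype and assay in 1 edgeR model. With this test 0 of 468 members passed in either direction, and 14 of all 12476 genes passed, or 0.112%, with 0.0561% in each direction. At an unadjusted p under 0.05 were 67 of the 468 members and 1202 of the 12476 genes. DESeq2 called 3 members lower: mt-Nd1 (-0.58, adjusted p = 0.0219), Ubl5 (-0.68, 0.0274) and the sparse frame of Rpl37a (-1.95, 0.0293). On simulated counts of 12441 genes this test recovered 72% of 2-fold rises and 48% of 2-fold falls in efficiency, and smaller shifts were not simulated. The simulation gave every gene the same fixed spread and drew the changed genes from all genes tested, not from short frames. Of the 801 members, 428 had under 100 footprints, so these rates are not the members' own.

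The members nearest the threshold, none past it in the edgeR fit of all 8 libraries without a replicate term, were Malat1 (-1.09, adjusted p = 0.0912), mt-Nd1 and Ubl5 (both adjusted p = 0.122) below 0 and Mllt11 (0.79, adjusted p = 0.16) above 0. Without cKO replicate 2 in both assays, Ubl5 (-0.97) and mt-Nd1 (-0.81) were called, both at an adjusted p of 0.0304. Thap7, a zinc finger protein, was at -1.15 (adjusted p = 0.223) on its longest frame and at 0.36 on the frame with the most footprints, so its sign rests on the frame chosen. The median efficiency change was -0.06 over 248 coding members and -0.02 over all genes. In control hearts the log2 ratio of footprint CPM on the frame to RNA CPM of the gene had a median of -0.12 for coding members and -1.77 for long noncoding RNAs (-0.16 and -2.92 among those with at least 50 RNA counts), which is not corrected for transcript length.

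**Figure D5:**
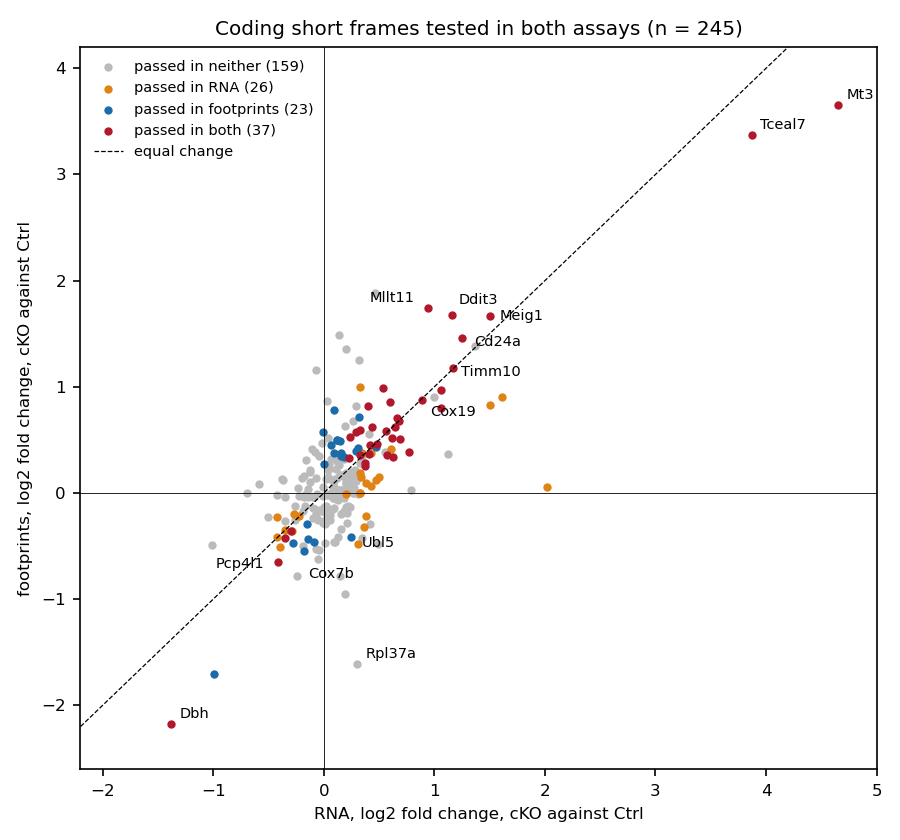
Footprint log2 fold change (vertical axis) against RNA log2 fold change (horizontal axis), cKO against Ctrl, for 245 coding short frames, coloured by the assay in which they passed an adjusted p of 0.05; the dashed line marks equal change, and Ccl22, Lif and Tcte2, with at most 3 counts in a group, are left out. Timm10 and Cox19 lie on the line, Mt3 and Tceal7 below it, and Mllt11 above it without passing the efficiency test.

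In H9C2, 238 members had their symbol on 1 row of the rat table, 236 of them coding, and 187 were tested. Their RNA was higher in the null line for 26 (13.9%) and lower for 16 (8.56%), beside 13.6% and 11.5% of all 14801 genes tested, so the members' shares were close to the background. The counts moved with single libraries, to 15 higher without null replicate 3, 17 without null replicate 1, 10 lower without WT replicate 1 and 38 lower without WT replicate 3. Of 176 tested in both systems, 11 passed in both heart RNA and H9C2. The 11 are 6.25% of those tested in both, beside 4.94% of all 10366 genes matched by symbol in the same way. Ddit3, Tceal7, Mllt11, Lif, Cxcl10 and Gpx3 were called higher in both (3.41%, beside 1.65% of all genes), and 5 members in opposite directions (2.84%, beside 2.08%). Ddit3 RNA was at 40.3, 48.2 and 38.8 CPM in WT cells and 59.6, 63.6 and 65.6 in null cells (0.57, SE 0.09, adjusted p = 0.00196), and Tceal7 at 1.88, 2.25 and 1.76 against 3.06, 4.01 and 3.86 (0.89, adjusted p = 0.00541). The groups were apart for both genes. The Mllt11 call in H9C2 (0.33, adjusted p = 0.033) was lost when any of 5 of the 6 libraries was left out, with adjusted p from 0.0648 without null replicate 2 to 0.128 without WT replicate 1. That of Gpx3 rests on at most 0.5 CPM and was also lost when any of 5 libraries was left out (0.0831 without null replicate 1 to 0.169 without null replicate 3). Heart RNA of Lif was called at 1.91 (adjusted p = 0.0241) from at most 1.49 CPM, and the call was lost with DESeq2 (0.151), without Ctrl replicate 1 (0.168), without cKO replicate 1 (0.0597) and without cKO replicate 2 (0.218). The heart RNA call of Cxcl10, a chemokine at no more than 1.36 CPM (adjusted p = 0.0346), was lost with DESeq2 (0.253) and without each of the 4 heart RNA libraries (0.127 without Ctrl replicate 2 to 0.198 without cKO replicate 2). The cell result comes from 1 edited line, so clone and genotype cannot be told apart.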

How the data were processed

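The authors deposited whole-number counts per gene (heart RNA, H9C2) and footprint counts per frame; the unit was read from the values. Per the submitters' processing notes the tools were Bowtie, Bowtie2, HISAT2, STAR, StringTie, featureCounts, cutadapt and DESeq2, and the builds GRCm38 and Rnor_6.0; which made which table, strand handling and multiply mapped reads are not given in the sources used here. Of 26398 frames, the longest per gene was kept (97.93% of footprints). Whole tables were fitted in edgeR 4.0.16 (R 4.3.3): quasi-likelihood test, TMM, filterByExpr, Benjamini-Hochberg at 0.05. SE is the fold change over the square root of F. DESeq2 1.42.0 and other scalings, filters, frames and left-out libraries were alternatives. The test was checked on simulated counts. Classes come from RefSeq records (657 members matched); 44 coding members overlap another gene. Members, role lists and markers were chosen with earlier results of these data known. Named members were the 10 with the highest mean footprint CPM; per assay the 10 largest called changes in each direction where groups did not overlap and the mean reached 1 CPM; the 5 with the smallest efficiency p per direction; the 4 with the smallest footprint adjusted p of each role list; and the edges of the rule. Cox7a2, Hopx, Gpx3, Gpx4, Selenof, Sln, Smpx, Gng11, Zfas1, Lif, Timm9, Timm8b and the genes given for H9C2 were added once their values were known. Of the other marker lists, 2 of 5 endothelial and 1 of 5 smooth muscle genes were lower, 1 skeletal muscle gene was higher, and fibroblast and liver lists gave no call. tRNA libraries were not used here.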

Additional observations from a re-analysis of the deposited data

Results flagged for a closer look

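For 5 members RNA passed in opposite directions in the hearts and in H9C2, with every library of 1 group apart from the other in both systems. The difference between the systems itself was not tested, and tissue, species, age and the kind of deletion differ between them. Pln, the calcium pump inhibitor, had a log2 fold change of -0.35 in the hearts and 0.85 in H9C2, where it was at 2.65, 3.21 and 2.88 CPM in WT and 5.46, 5.96 and 4.37 in null cells, against over 900 CPM in every heart library. Cox6a2, the muscle form of a complex IV subunit, was at -0.27 in the hearts and 1.12 in H9C2, at 6.15, 7.65 and 4.31 CPM in WT and 13.6, 13.3 and 12.6 in null cells. Pcp4l1 was at -0.41 and 0.71, the latter lost without any 1 of the 6 H9C2 libraries (adjusted p 0.0503 to 0.142). Dusp18, a phosphatase, was at -0.40 and 0.35. Coa5, the assembly factor, ran the other way, at 0.24 in the hearts and -0.50 in H9C2; its heart call was lost without Ctrl replicate 1 (0.0671) and without cKO replicate 2 (0.0549).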

How the results depend on the processing

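Of 67 footprint calls among coding members, 26 were kept under every alternative, as were 38 of 65 RNA calls. Members with higher footprints numbered 53 (without cKO replicate 1) to 75 without 1 library and 55 at a limit of 80 codons, and lower ones 20 to 33 without 1 library (20 without Ctrl replicate 1, 22 without cKO replicate 1) and 22 with DESeq2. Coding members with higher footprints numbered 31 to 46 without 1 library, and lower ones 24 where 1 count sufficed for a test. Members with higher RNA numbered 49 (without cKO replicate 1) to 85 without 1 library, 53 with DESeq2, 53 at 80 codons and 135 at 120 codons, and lower ones 17 with DESeq2. Coding members with higher RNA numbered 33 to 58 without 1 library and 34 with DESeq2. Lower efficiency was called for 0 to 2 members without 1 library pair (2 without cKO replicate 2) and 3 with DESeq2, and without cKO replicate 1 no gene passed. H9C2 gave 15 to 26 higher and 10 to 38 lower without 1 library. The difference in members' share, cKO minus Ctrl, moved from -0.61 to -0.08 percentage points in footprints and from -1.99 to 0.17 in RNA without mitochondrial features. The control ratio of members was -0.91, and -1.12 with at least 50 RNA counts. Thap7 efficiency turned to 0.10 with all frames summed and 0.36 on the most covered frame. The cause was not tested.

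Whether replicate numbers pair the samples was not settled. Correlations of same-numbered deviations from the group mean were -0.036 in footprints and 0.009 in RNA. Between RNA and footprint libraries they were 0.174 in Ctrl and 0.096 in cKO. With 2 libraries per group the 2 deviations mirror each other, so these values cannot exclude pairing. With the replicate block 24 coding members had lower footprints, and efficiency was higher for 2 members (Cox7c, Ndufc1) and lower for 7 (Malat1, mt-Nd1, Ubl5, Rpl41, mt-Ti, Uqcr10, Rpl37a), and for 47 and 85 of all genes in place of 7 and 7. Depth limits the rarer frames: 428 members had under 100 footprints.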
